A study of Homo sapiens with 6 samples.

Results

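The comparison described here set iCAFs+JNKi against untreated MRC5, 2 of the 6 RNA-seq samples of the series, with the iCAFs sample as the point between them. MRC5 is a human embryonic lung fibroblast line, here immortalised with hTERT and routinely kept in DMEM with serum. The iCAFs were MRC5 cells held for 7 days in medium conditioned by MDA-MB-231, a human breast cancer line, and iCAFs+JNKi were such cells given 1 µM JNKi, the JNK inhibitor JNK-IN-8, for 48 h. The labels name DMSO as the vehicle for the iCAFs. The sources used here do not say whether the 48 h of inhibitor lay within the 7 days of conditioned medium or followed them. The conditioned medium was made without serum and MRC5 are routinely kept with it, but the sources used here do not say whether the untreated library came from cells with serum, without it or with DMSO. The cancer cell products, any difference in serum and the inhibitor therefore cannot be told apart in the difference between iCAFs+JNKi and MRC5. Each condition was 1 library of 1 line, so differences between them are without a replicate check, and neither errors nor p-values are given. Of 25368 gene symbols in the table, the 11780 with a mean of at least 1 FPKM over the 3 libraries were compared. FPKM, fragments scaled by the exon length of the gene and by the mapped fragments of the library, is a level per length, and differences are given as log2(FPKM + 1), a scale that understates the difference of genes with low values.

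JNK is a stress-activated kinase that phosphorylates the transcription factor JUN, a subunit of the AP-1 dimer. AP-1 and NF-kB are the factors best known for switching on cytokine and chemokine genes in fibroblasts that meet tumour cells or interleukin-1. Fibroblasts of tumours are often described as inflammatory, with secreted IL6, LIF and CXC chemokines, or as myofibroblastic, with contractile proteins and collagen. The inhibitor acts on a protein, and phosphorylated JUN is not seen by RNA-seq, so the table holds no direct check of the treatment. The JUN transcript itself was at 57.1, 55.3 and 21.1 FPKM in MRC5, iCAFs and iCAFs+JNKi.

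The summed FPKM of the 3 libraries were 399532 for MRC5, 393521 for iCAFs and 359944 for iCAFs+JNKi. Read numbers were not given, but low values shared a step: of 1917 genes under 0.5 FPKM in both libraries, 50 had a ratio of 1.07 between iCAFs+JNKi and MRC5, against 22 at the next most common ratio, so that 1 fragment was worth about 1.07 times as much in iCAFs+JNKi. All 13 fibroblast markers looked at were at 1 FPKM or more in the 3 libraries, with a summed level of 6349, 4695 and 7376 FPKM in MRC5, iCAFs and iCAFs+JNKi. Of 13 epithelial markers 3 or 4 reached 1 FPKM, led by KRT18 at 24.8 to 29.5 FPKM. CDH1, KRT5, KRT14, ESRP1 and KRT81 were listed at 0 in all 3 libraries, and the summed level of the 13 was 43.8, 35.1 and 42.8 FPKM in the same order. The immune markers PTPRC, CD3E and LYZ and the endothelial marker CDH5 were likewise listed at 0. Among 9 immune and 8 endothelial markers 1 each reached 1 FPKM, CD68 at 37.7 to 48.6 FPKM and TEK, which was at 2.52, 3.77 and 10.4 FPKM. Of 9 smooth muscle and pericyte markers, 6, 6 and 5 reached 1 FPKM in MRC5, iCAFs and iCAFs+JNKi. Their summed level was 162, 162 and 218 FPKM in the same order. MCAM was at 46.4, 70.2 and 69.8 FPKM, NOTCH3 at 24.9, 33.6 and 53.5 FPKM and CSPG4 at 32.5, 23.2 and 22 FPKM. MYH11 was at 0.295 FPKM or less and DES at 0.163 FPKM or less.

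Against MRC5, 386 genes (3.28% of the 11780) stood at least 2-fold higher in iCAFs+JNKi and 416 genes (3.53%) at least 2-fold lower. In iCAFs the same limit took 228 genes higher (1.94%) and 202 lower (1.71%). These 430 genes are called the conditioned-medium programme below. Counting every gene whatever the size of its difference, 33.6% were higher in iCAFs+JNKi than in MRC5 and 66.4% lower, and the median gene was at -0.16 (quartiles -0.42 and 0.11), against -0.06 in iCAFs. The split between higher and lower therefore depends on the scaling: 48.1% of the genes past 2-fold were higher in the values as deposited, 59.3% after rescaling each library to the same sum and 65.9% after centring on the median gene. Leaving out genes that averaged under 5 FPKM, the largest differences upward in iCAFs+JNKi were those of CXCL8, CXCL1, HBG2, SAA1 and SAA2. The largest downward were those of NPTX1, the readthrough SERF2-C15ORF63, PTX3, KRTAP2-3 and SH2D5. The plot of both differences against MRC5 spreads the genes along the line of equality, with IL6, IL1B, CCL20 and CSF3 under it and LIF on the far side of MRC5. Both differences use the same MRC5 library, so they lie along that line in part for that reason.

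**Figure D1:**
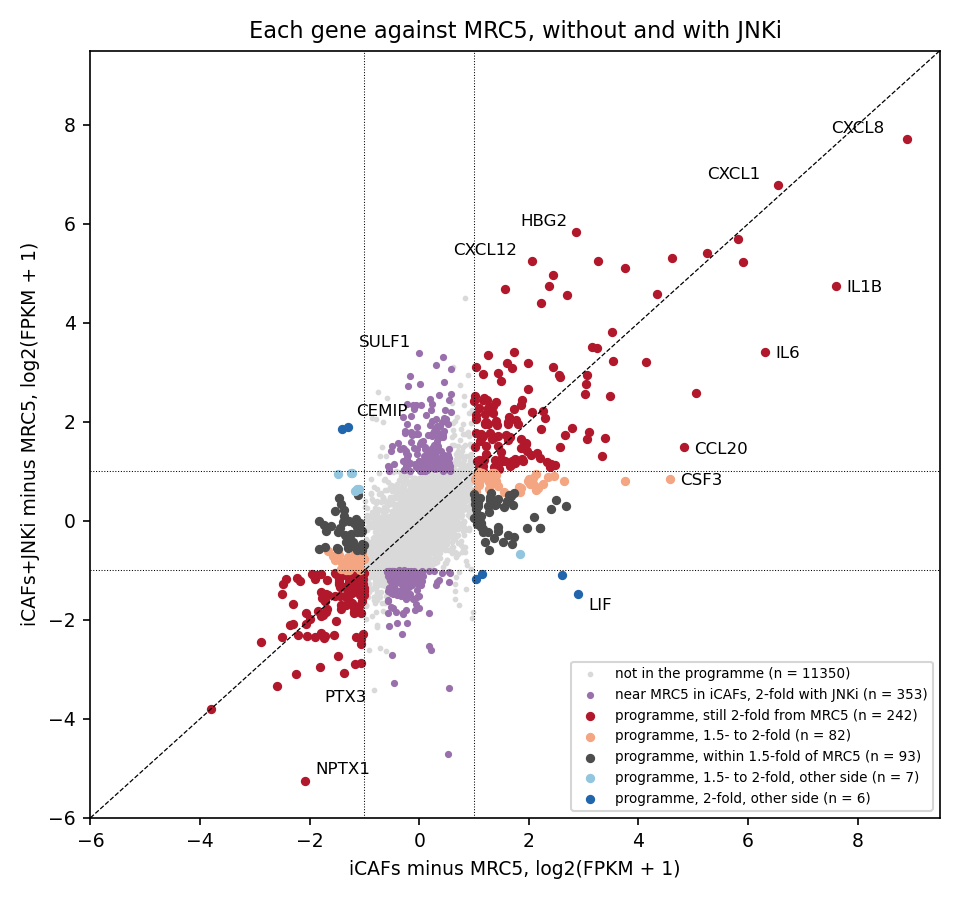
Difference from MRC5 in iCAFs (x axis) and in iCAFs+JNKi (y axis), both as log2(FPKM + 1), for the 11780 genes, 1 point a gene. The dashed line marks equal differences, the dotted lines 2-fold, and the colours the classes of programme genes, of which 242 stayed past 2-fold and 93 stood within 1.5-fold of MRC5.

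Each programme gene was placed by its level in iCAFs+JNKi: retained if still at least 2-fold from MRC5 on the same side, partly retained between 1.5-fold and 2-fold, returned within 1.5-fold of MRC5, past MRC5 at 1.5-fold to 2-fold on the other side, and overshot at 2-fold or more on the other side. Of the 228 genes higher in iCAFs, 132 (57.9%) were retained, 42 (18.4%) partly retained, 49 (21.5%) returned, 1 was past MRC5 and 4 overshot. Of the 202 genes lower in iCAFs, 110 (54.5%) were retained, 40 (19.8%) partly retained, 44 (21.8%) returned, 6 were past MRC5 and 2 overshot. Over all genes, 3.28% stood 2-fold higher and 3.53% lower in iCAFs+JNKi, but the classes share the MRC5 library with the programme, so nothing is read from that contrast. The part of the FPKM difference between iCAFs and MRC5 that was left in iCAFs+JNKi had a median of 61.6% for the genes higher in iCAFs (quartiles 20.8% and 133%) and 82.4% for those lower (59.7% and 104%). Thus 149 of the 228 were nearer to MRC5 than in iCAFs, and 79 farther. MRC5 was under 1 FPKM for 63 of the 228, 15 of them listed at 0, and for such genes the class rests on the pseudocount. Just inside the programme stood GDF15 at a log2 difference of 1.00, and just outside it NID1 at 0.99.

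**Figure D2:**
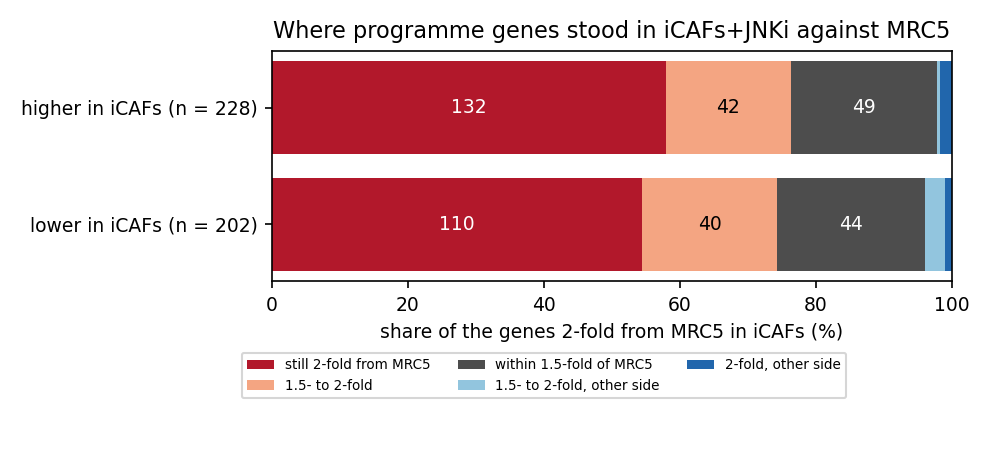
Share of the programme genes in each class in iCAFs+JNKi, for the 228 genes higher and the 202 genes lower than MRC5 in iCAFs. The bars are alike in their parts, with 57.9% and 54.5% of the genes still past 2-fold.

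The ELR-type CXC chemokines, which draw neutrophils through the receptors CXCR1 and CXCR2, had the highest median above MRC5 under the inhibitor among the 35 gene lists looked at. CXCL8, interleukin-8, was at 0.153 FPKM in untreated cells, 548 FPKM in iCAFs and 240.03 FPKM under the inhibitor, log2 differences from MRC5 of 8.89 and 7.71. CXCL1 was at 0.0877 FPKM in MRC5, 101 FPKM without JNKi and 118 FPKM with it, and CXCL6 at 0.0628, 13.3 and 35.9 FPKM in MRC5, iCAFs and iCAFs+JNKi. Neither was lower with the inhibitor than without it. CXCL5 was at 0.104 FPKM in untreated cells, 21.4 FPKM in iCAFs and 25.3 FPKM under the inhibitor. Like CXCL8, the remaining pair was lower with JNKi than without it. CXCL3 was listed at 0 FPKM in MRC5, 16.5 FPKM without JNKi and 8.22 FPKM with it. CXCL2 was at 0, 4.595 and 1.18 FPKM in MRC5, iCAFs and iCAFs+JNKi. Of 7 listed members, 6 passed the limit of 1 FPKM, all 6 were retained, and the median log2 difference from MRC5 was 4.24 in iCAFs and 4.85 in iCAFs+JNKi, where the median of all genes was -0.06 and -0.16. CXCL2 and CXCL3 being listed at 0 in MRC5, no fold can be given for them. All 6 were at 0.153 FPKM or less in MRC5 and passed the limit of 1 FPKM through the other libraries. That they stood above MRC5 is therefore in large part fixed by the limit.

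These genes lie in a row on chromosome 4 between positions 74606236 and 75719733 of GRCh37, from CXCL8 to the EGF-family gene BTC. Of 15 genes of the table in that stretch, 8 passed the limit of 1 FPKM, and 8 of 8 were higher in iCAFs and retained. They were the 6 chemokines with AREG and EREG, which encode ligands of the EGF receptor. The chemokines were at 0.153 FPKM or less in MRC5 and passed through the other libraries. The count of 8 of 8 is thus largely set by the limit, and nothing is read from it. AREG was at 1.97 FPKM in untreated cells, 71.8 FPKM in iCAFs and 117 FPKM under the inhibitor, above its level in iCAFs. EREG was at 7.44 FPKM in MRC5, 31.6 FPKM without JNKi and 24.3 FPKM with it. The platelet chemokine genes PF4, PF4V1 and PPBP in the same stretch were listed at 0 in all 3 libraries. CXCL1, CXCL2 and CXCL3 are close in sequence, as are CXCL5 and CXCL6, so the division of reads within these groups is uncertain.

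The proximal promoters of the 6 chemokine genes are shown because all 6 were retained, though only 3 stood above their level in iCAFs. Those of IL6 and CCL20, inflammatory genes that kept a smaller part of their level, stand beside them. Each line holds the 150 bases before the transcription start, from RefSeq on GRCh38.p14, read in the direction of the gene. Capitals mark matches to the NF-kB motif, searched on both strands, and to the AP-1 heptamer TGACTCA, searched on both strands as TGACTCA or TGAGTCA.
CXCL8, chr4:73740419-73740568, plus strand: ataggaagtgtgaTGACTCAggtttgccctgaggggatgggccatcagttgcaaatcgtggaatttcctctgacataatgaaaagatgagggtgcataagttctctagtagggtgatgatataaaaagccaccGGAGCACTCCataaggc
CXCL6, chr4:73836528-73836677, plus strand: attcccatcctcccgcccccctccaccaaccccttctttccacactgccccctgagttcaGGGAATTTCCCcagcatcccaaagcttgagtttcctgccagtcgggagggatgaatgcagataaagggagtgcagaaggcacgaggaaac
CXCL1, chr4:73869243-73869392, plus strand: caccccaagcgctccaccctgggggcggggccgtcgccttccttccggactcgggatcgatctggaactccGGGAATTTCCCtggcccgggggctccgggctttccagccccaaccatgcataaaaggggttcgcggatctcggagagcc
CXCL5, chr4:73998678-73998827, minus strand: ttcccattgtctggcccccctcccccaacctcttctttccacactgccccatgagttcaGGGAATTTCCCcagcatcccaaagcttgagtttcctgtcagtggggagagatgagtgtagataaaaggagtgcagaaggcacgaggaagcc
CXCL3, chr4:74038690-74038839, minus strand: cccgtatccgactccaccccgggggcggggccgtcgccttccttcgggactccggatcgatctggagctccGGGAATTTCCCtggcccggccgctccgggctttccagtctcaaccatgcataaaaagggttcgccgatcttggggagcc
CXCL2, chr4:74099196-74099345, minus strand: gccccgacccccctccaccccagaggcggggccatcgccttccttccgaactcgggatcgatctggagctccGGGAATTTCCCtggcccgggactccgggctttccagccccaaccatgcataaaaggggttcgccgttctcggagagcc
IL6, chr7:22727050-22727199, plus strand: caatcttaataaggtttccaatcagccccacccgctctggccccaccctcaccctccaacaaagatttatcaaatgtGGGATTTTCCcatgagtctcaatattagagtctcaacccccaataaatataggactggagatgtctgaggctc
CCL20, chr2:227813692-227813841, plus strand: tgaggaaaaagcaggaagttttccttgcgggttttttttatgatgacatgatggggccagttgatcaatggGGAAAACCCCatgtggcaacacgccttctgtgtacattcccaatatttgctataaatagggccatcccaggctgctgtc

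In the 300-base promoter windows, 250 bases before and 50 after the start, all 6 chemokine genes held the NF-kB motif, as did 13.6% of all 27305 promoters in the table. The AP-1 heptamer was found in 1 of the 6, that of CXCL8, with its first base at -137 from the start, and in 4.92% of all promoters. In CXCL6, CXCL1, CXCL5, CXCL3 and CXCL2 the capitals cover 2 overlapping matches that begin between -91 and -77. The match in CXCL8 lay at -17, but the run ggaatttcc that the other 5 share stood in CXCL8 as well, at -91. IL6 held its match at -73 and CCL20 at -79. Such matches describe the letters of these windows and show no binding. Promoters were found for 79.5% of the 11780 genes and for under 80% of each of the larger classes, so that motif shares by class were void and are not given.

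Outside the chemokine cluster, the serum amyloid genes, C3 and several other genes were retained at a level within 2-fold of that in iCAFs. SAA1 and SAA2 encode serum amyloid A, lie next to each other on chromosome 11 between 18260770 and 18291524 of GRCh37, and were listed at 0 in MRC5. SAA1 was at 55.4 FPKM without JNKi and 50.9 FPKM with it, and SAA2 at 36.97 FPKM and 41.5 FPKM. The 2 are near-identical, and SAA2 shares exon bases with a readthrough gene. C3, the central component of complement, was at 1.18, 130.4 and 80.8 FPKM in MRC5, iCAFs and iCAFs+JNKi, a log2 difference of 5.23 from MRC5. NFKBIZ, which encodes an atypical IkB protein needed for secondary NF-kB targets such as IL6, was at 4.81 FPKM in untreated cells, 46.7 FPKM in iCAFs and 38.4 FPKM under the inhibitor. MMP3, the matrix metalloproteinase stromelysin-1, was at 33.7 FPKM in MRC5, 289.6 FPKM without JNKi and 268 FPKM with it, and MT1X, a metal-binding metallothionein, at 28.95, 108 and 163 FPKM in MRC5, iCAFs and iCAFs+JNKi. IGFBP3, which binds insulin-like growth factors, was at 25.6 FPKM in untreated cells, 304 FPKM in iCAFs and 374 FPKM under the inhibitor. For all of these the level with the inhibitor was nearer to iCAFs than to MRC5.

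Other inflammatory genes were retained by the 2-fold limit but with a small part of their level left. IL1B, the secreted interleukin-1 beta, was listed at 0 FPKM in MRC5, 194 FPKM without JNKi and 25.9 FPKM with it, with 13.4% of the difference left. IL6 was at 0.627, 129 and 16.4 FPKM in MRC5, iCAFs and iCAFs+JNKi, with 12.3% left. PTGS2, the inducible cyclooxygenase of prostaglandin synthesis, was at 0.274 FPKM in untreated cells, 41.5 FPKM in iCAFs and 6.61 FPKM under the inhibitor. CCL2, the main monocyte chemokine, was at 14.8 FPKM in MRC5, 159 FPKM without JNKi and 38.1 FPKM with it, and CCL20, a ligand of CCR6 on lymphocytes and dendritic cells, was listed at 0, 27.4 and 1.798 FPKM in MRC5, iCAFs and iCAFs+JNKi. Of the genes that feed back on NF-kB, NFKBIA was at 9.97 FPKM in untreated cells, 57.3 FPKM in iCAFs and 23.4 FPKM under the inhibitor, TNFAIP3 at 1.64 FPKM in MRC5, 14.7 FPKM without JNKi and 6.44 FPKM with it and ZC3H12A, an RNase that degrades cytokine mRNA, at 2.48, 28.7 and 11.1 FPKM in MRC5, iCAFs and iCAFs+JNKi. These 3 were all retained, with 28.4% to 36.6% of the difference left. The subunits NFKB1 and RELA were near MRC5, at log2 differences of -0.05 and -0.22. Of 13 NF-kB subunits and feedback genes, 4 were 2-fold higher and 0 lower, beside 3.28% of all genes higher and 3.53% lower. Of 14 interleukin-1 family genes listed, 5 passed the limit of 1 FPKM and 2 of these were 2-fold higher. Of 16 CC and other chemokines listed, 4 passed and 3 were 2-fold higher. IL1B, IL33 and CCL20 were at 0 in MRC5 and passed through the other libraries, so nothing is read from these 2 counts. Without a filter the medians of the 2 lists were 0.0027 and 0.0060. IL6 shares exon bases with STEAP1B on the other strand, and the strand setting of the counting was not given.

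Of the 132 retained genes higher than MRC5, 90 were within 2-fold of their level in iCAFs, 14 were at least 2-fold lower than in iCAFs and 28 at least 2-fold higher. CXCL12, the ligand of CXCR4, was among the 28, at 2.13 FPKM in untreated cells, 12.1 FPKM in iCAFs and 118 FPKM under the inhibitor. DIO2, a deiodinase that activates thyroid hormone, was at 0.984 FPKM in MRC5, 17.98 FPKM without JNKi and 74.5 FPKM with it, and ELN, elastin, at 0.118, 2.33 and 27.6 FPKM in MRC5, iCAFs and iCAFs+JNKi. The embryonic and fetal beta-type globin genes followed the same order. HBG2 was at 0.538 FPKM in untreated cells, 10.2 FPKM in iCAFs and 86.8 FPKM under the inhibitor, HBG1 at 0.358 FPKM in MRC5, 6.39 FPKM without JNKi and 41.5 FPKM with it and HBE1 at 1.41, 11.5 and 64.1 FPKM in MRC5, iCAFs and iCAFs+JNKi. HBD, which was not in the programme, was at 1.01 FPKM in untreated cells, 0.341 FPKM in iCAFs and 10.2 FPKM under the inhibitor, while the adult HBB was listed at 0 in all 3 libraries. The globin genes lie between 5246694 and 5526882 of chromosome 11 in GRCh37, HBG1 and HBG2 are near-identical, and HBG2 shares exon bases with HBE1, so the split of reads among them is uncertain. PDK4, a kinase that inhibits pyruvate dehydrogenase, was at 0.0848 FPKM in MRC5, 6.001 FPKM without JNKi and 24.6 FPKM with it. COL4A1 and COL4A2, the basement membrane collagens that share a promoter region head to head, were at 52.5, 162 and 488 FPKM in MRC5, iCAFs and iCAFs+JNKi and at 104 FPKM in untreated cells, 295 FPKM in iCAFs and 749.7 FPKM under the inhibitor. THBS1, thrombospondin-1, was at 274 FPKM in MRC5, 621 FPKM without JNKi and 1527 FPKM with it. For this group the inhibited cells stood further from MRC5 than the iCAFs did.

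The ID genes, direct targets of BMP signalling that block basic helix-loop-helix factors, were retained at or above the level of iCAFs. ID1 was at 9.61, 94.03 and 119.7 FPKM in MRC5, iCAFs and iCAFs+JNKi and ID3 at 10.1 FPKM in untreated cells, 105 FPKM in iCAFs and 125 FPKM under the inhibitor. ID2 was at 9.37 FPKM in MRC5, 22.7 FPKM without JNKi and 45.4 FPKM with it, and ID4, which was not in the programme, at 0.08005, 1.004 and 7.38 FPKM in MRC5, iCAFs and iCAFs+JNKi. INHBA, the activin A subunit, was at 29.2 FPKM in untreated cells, 179 FPKM in iCAFs and 225 FPKM under the inhibitor, and its antagonist FST, follistatin, at 71.03 FPKM in MRC5, 99.9 FPKM without JNKi and 301 FPKM with it. The BMP antagonist GREM1 was at 187, 529.7 and 494 FPKM in MRC5, iCAFs and iCAFs+JNKi. Of the 12 BMP and ID genes measured, 12 were higher in iCAFs+JNKi than in MRC5 and 10 at least 2-fold so, where 3.28% of all genes were 2-fold higher. Their median was 2.04 in iCAFs+JNKi and 1.04 in iCAFs. ID4, among the 10, was under 1 FPKM in MRC5 and passed the limit through the other libraries. Without a filter the median in iCAFs+JNKi was 1.54.

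**Figure D3:**
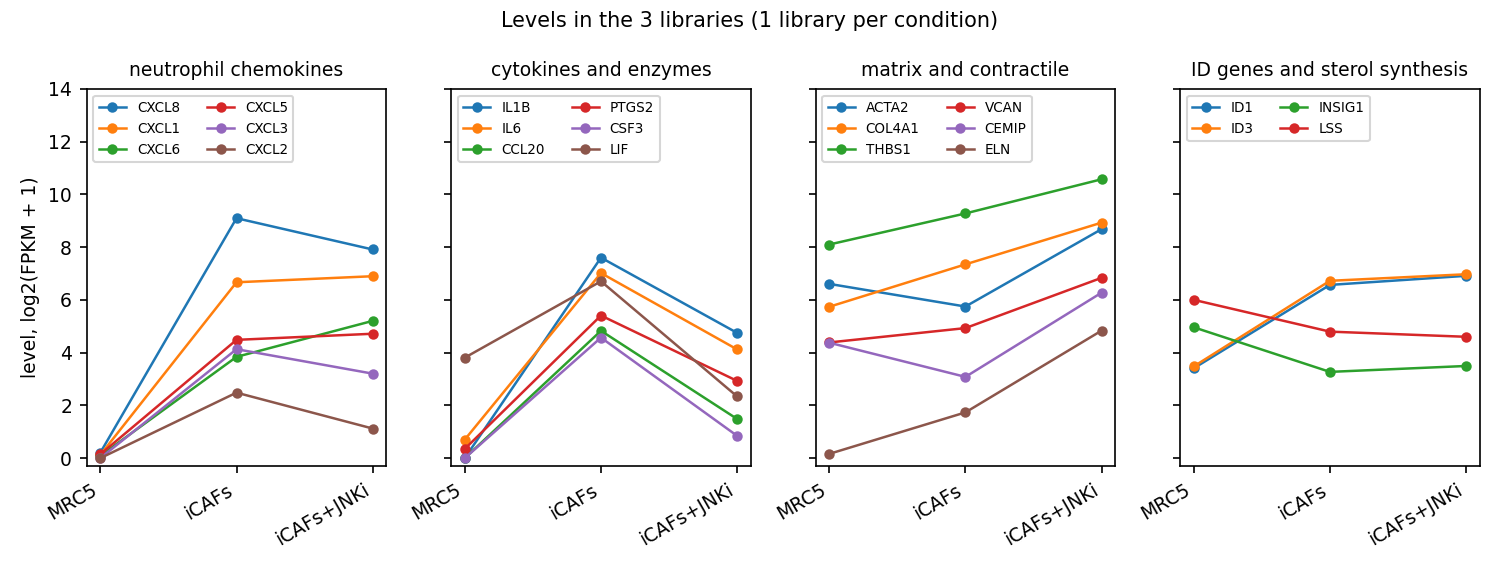
Level of named genes in the 3 libraries as log2(FPKM + 1), 1 library per condition, so that the lines have no error. CXCL1 and CXCL6 were at least as high in iCAFs+JNKi as in iCAFs, IL1B, IL6, CCL20, PTGS2 and CSF3 stood between iCAFs and MRC5, LIF under MRC5, and the matrix genes were highest in iCAFs+JNKi.

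Among the 42 partly retained genes, CSF3, the granulocyte growth factor G-CSF, was listed at 0 FPKM in untreated cells, 22.8 FPKM in iCAFs and 0.796 FPKM under the inhibitor, with 3.49% of the difference left. IL1A, interleukin-1 alpha, was likewise listed at 0 FPKM in MRC5, 12.5 FPKM without JNKi and 0.761 FPKM with it. For both, MRC5 at 0 sets the class through the pseudocount. SOD2, the mitochondrial superoxide dismutase induced by NF-kB, was at 82.2, 454 and 156 FPKM in MRC5, iCAFs and iCAFs+JNKi, and shares exon bases with ACAT2 and WTAP on the other strand. RELB, an NF-kB subunit of the non-canonical pathway, was at 3.24 FPKM in untreated cells, 10.5 FPKM in iCAFs and 5.89 FPKM under the inhibitor. PLOD2, which hydroxylates collagen telopeptides, was at 22.99 FPKM in MRC5, 104 FPKM without JNKi and 45.3 FPKM with it, and ANGPTL4, a secreted inhibitor of lipoprotein lipase, at 6.104, 30.3 and 9.96 FPKM in MRC5, iCAFs and iCAFs+JNKi. MAFF, a small MAF protein of the AP-1 superfamily, was at 18.8 FPKM in untreated cells, 49.9 FPKM in iCAFs and 33.9 FPKM under the inhibitor. All of these lay between MRC5 and iCAFs.

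The 49 genes that returned from above held several signalling and protease genes. IER3, an immediate early gene of stress, was at 4.97 FPKM in MRC5, 32.5 FPKM without JNKi and 7.01 FPKM with it, and G0S2, which inhibits the lipase ATGL, at 10.8, 53.2 and 9.65 FPKM in MRC5, iCAFs and iCAFs+JNKi. NRG1, a ligand of ERBB receptors, was at 14.7 FPKM in untreated cells, 66.03 FPKM in iCAFs and 15.5 FPKM under the inhibitor. IRAK2, a kinase of interleukin-1 receptor signalling, was at 4.54 FPKM in MRC5, 20.7 FPKM without JNKi and 4.001 FPKM with it, and TNIP1, which restrains NF-kB together with TNFAIP3, at 54.96, 173 and 73.4 FPKM in MRC5, iCAFs and iCAFs+JNKi. HAS2, the hyaluronan synthase, was at 5.27 FPKM in untreated cells, 18.2 FPKM in iCAFs and 4.17 FPKM under the inhibitor. MMP1, interstitial collagenase, was at 344 FPKM in MRC5, 1042 FPKM without JNKi and 455 FPKM with it. VEGFC, the lymphatic growth factor, was at 35.99, 79.5 and 34.2 FPKM in MRC5, iCAFs and iCAFs+JNKi. G0S2, IRAK2, HAS2 and VEGFC were thus a little under MRC5, though centring on the median gene puts G0S2, IRAK2 and VEGFC just above it, and the others were above it. Of the plasminogen system, the receptor PLAUR was at 46.6 FPKM in untreated cells, 94.6 FPKM in iCAFs and 48.5 FPKM under the inhibitor and the activator PLAT at 64.5 FPKM in MRC5, 175 FPKM without JNKi and 88.1 FPKM with it, both returned, whereas the activator PLAU was at 339, 1563 and 815 FPKM in MRC5, iCAFs and iCAFs+JNKi and retained. Of 8 genes of that system 2 were 2-fold higher than MRC5 and 1 lower, beside 3.28% and 3.53% of all genes. DUSP1, a phosphatase of MAP kinases, was at 32.6 FPKM in untreated cells, 86.7 FPKM in iCAFs and 41.1 FPKM under the inhibitor, and SOCS3, which restrains gp130 signalling, at 8.78 FPKM in MRC5, 23.2 FPKM without JNKi and 13.4 FPKM with it.

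Few genes higher in iCAFs, 5 of the 228, ended at least 1.5-fold under MRC5. LIF, a gp130 cytokine of the interleukin-6 family, was at 13.02, 104 and 4.06 FPKM in MRC5, iCAFs and iCAFs+JNKi, log2 differences of 2.90 and -1.47. CLDN1, a tight junction claudin, was at 56.8 FPKM in untreated cells, 127 FPKM in iCAFs and 26.5 FPKM under the inhibitor. HBEGF, another EGF receptor ligand, was at 5.95 FPKM in MRC5, 23.8 FPKM without JNKi and 3.36 FPKM with it, past MRC5 by less than 2-fold. NME1-NME2, a readthrough of its neighbours NME1 and NME2 with which it shares exon bases, was at 39.2, 81.3 and 16.7 FPKM in MRC5, iCAFs and iCAFs+JNKi. The relatives of LIF differed, since IL6 was retained, as was IL11, at 10.6 FPKM in untreated cells, 72.7 FPKM in iCAFs and 37.8 FPKM under the inhibitor. Of 11 gp130 cytokines, receptors and feedback genes, 2 were thus 2-fold higher than MRC5 and 1 lower, beside 3.28% and 3.53% of all genes. The ligands of the EGF receptor likewise differed among themselves, with AREG above iCAFs, EREG between iCAFs and MRC5, and HBEGF under MRC5.

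The genes lower in iCAFs and still 2-fold lower under the inhibitor included lipid, adhesion and signalling genes. FABP3, a fatty acid binding protein, was at 18.8 FPKM in MRC5, 1.69 FPKM without JNKi and 2.66 FPKM with it, FABP4 at 28.7, 4.21 and 9.61 FPKM in MRC5, iCAFs and iCAFs+JNKi and PPARG, the adipogenic nuclear receptor, at 31.4 FPKM in untreated cells, 9.196 FPKM in iCAFs and 10.4 FPKM under the inhibitor. OXTR, the oxytocin receptor, was at 14.9 FPKM in MRC5, 1.82 FPKM without JNKi and 2.12 FPKM with it, and CTSK, the collagen-degrading cathepsin K, at 80.3, 16.4 and 35.6 FPKM in MRC5, iCAFs and iCAFs+JNKi. Of the 110, 96 were within 2-fold of their level in iCAFs, 10 at least 2-fold lower still and 4 at least 2-fold nearer to MRC5. NPTX1, a secreted pentraxin, was among the 10, at 91.2 FPKM in untreated cells, 20.8 FPKM in iCAFs and 1.43 FPKM under the inhibitor. SH2D5, an adaptor protein, was at 16.9 FPKM in MRC5, 1.96 FPKM without JNKi and 0.771 FPKM with it. At a log2 difference from iCAFs of -0.74 it was not among the 10. ITGA6, the laminin receptor subunit alpha 6, was at 79.05, 29.8 and 8.57 FPKM in MRC5, iCAFs and iCAFs+JNKi, and DUSP5, a phosphatase specific for ERK, at 31.99 FPKM in untreated cells, 13.9 FPKM in iCAFs and 5.49 FPKM under the inhibitor.

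Of the 35 lists, sterol synthesis had the most genes at least 2-fold lower, in iCAFs and in iCAFs+JNKi. Of 30 genes of cholesterol and fatty acid synthesis, 14 were at least 2-fold lower in iCAFs and 12 in iCAFs+JNKi, where 3.53% of all genes were, and 28 of 30 were lower at all (27 when rescaled or centred), beside 66.4% of all genes. The median log2 difference was -0.98 in iCAFs and -0.90 in iCAFs+JNKi. INSIG1, the sterol-regulated anchor of SREBP, was at 30.2 FPKM in MRC5, 8.66 FPKM without JNKi and 10.3 FPKM with it, and LSS, lanosterol synthase, at 63.2, 26.8 and 23.3 FPKM in MRC5, iCAFs and iCAFs+JNKi. FADS1 and FADS2, fatty acid desaturases, were the 2 members above MRC5, at 35.6 FPKM against 26.2 FPKM and at 69.7 FPKM against 56.9 FPKM.

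Of the 44 genes that returned from below, DCN, the collagen-binding proteoglycan decorin, was at 296 FPKM in untreated cells, 107 FPKM in iCAFs and 409 FPKM under the inhibitor. MFAP4, a microfibril protein, was at 43.7 FPKM in MRC5, 15.002 FPKM without JNKi and 37.4 FPKM with it, PRSS23, a serine protease, at 87.2, 25.6 and 81.99 FPKM in MRC5, iCAFs and iCAFs+JNKi, and ACTG2, the smooth muscle gamma actin, at 147 FPKM in untreated cells, 65.8 FPKM in iCAFs and 152 FPKM under the inhibitor. PRSS23 and MFAP4 share exon bases with a gene of the opposite strand. Past MRC5 stood POSTN, periostin, at 39.6 FPKM in MRC5, 13.6 FPKM without JNKi and 77.3 FPKM with it, and BMP4 at 9.07, 3.57 and 14.8 FPKM in MRC5, iCAFs and iCAFs+JNKi. The 2 genes that overshot were CEMIP, which degrades hyaluronan, at 19.8 FPKM in untreated cells, 7.47 FPKM in iCAFs and 76.6 FPKM under the inhibitor, and PODN, the small proteoglycan podocan, at 7.26 FPKM in MRC5, 2.12 FPKM without JNKi and 28.8 FPKM with it. Their log2 differences from MRC5 turned from -1.30 and -1.40 in iCAFs to 1.90 and 1.85 in iCAFs+JNKi.

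Most genes that differed 2-fold between iCAFs+JNKi and MRC5 were not in the programme. Of the 386 genes 2-fold higher, 132 (34.2%) were retained programme genes, 77 had stood between 1.5-fold and 2-fold higher in iCAFs, and 167 (43.3%) had been within 1.5-fold of MRC5 in iCAFs. Of the 416 genes 2-fold lower, 110 (26.4%) were retained, 107 had been 1.5-fold to 2-fold lower, and 186 (44.7%) had been within 1.5-fold of MRC5. The genes of the last kind were called against MRC5 alone. Some were under 2-fold from iCAFs, such as MKI67 and ADAMTS2, at log2 differences from iCAFs of -0.67 and 0.90.

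Genes of the extracellular matrix were among the 167. SULF1, a heparan sulphate sulphatase at the cell surface, was at 0.568, 0.571 and 15.4 FPKM in MRC5, iCAFs and iCAFs+JNKi. VCAN, the large proteoglycan versican, was at 19.9 FPKM in untreated cells, 29.5 FPKM in iCAFs and 114 FPKM under the inhibitor, FMOD, fibromodulin, at 2.49 FPKM in MRC5, 3.78 FPKM without JNKi and 23.3 FPKM with it, and LUM, lumican, at 14.6, 12.1 and 52.4 FPKM in MRC5, iCAFs and iCAFs+JNKi. CDH6, a cadherin, was at 4.87 FPKM in untreated cells, 4.12 FPKM in iCAFs and 37.9 FPKM under the inhibitor, and SERPINE2, a protease inhibitor, at 95.5 FPKM in MRC5, 81.99 FPKM without JNKi and 374 FPKM with it. FBN2, fibrillin-2, was at 13.97, 13.6 and 54.7 FPKM in MRC5, iCAFs and iCAFs+JNKi. Each of these was within 1.5-fold of MRC5 in iCAFs. Of 9 genes that make, bind or cleave heparan sulphate and hyaluronan, 4 were 2-fold higher and 0 lower. Over all genes the shares were 3.28% and 3.53%. SULF1, among the 4, was under 1 FPKM in MRC5 and iCAFs and passed the limit through iCAFs+JNKi.

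The collagens were higher as a family. Of 21 measured collagen genes, 21 were higher in iCAFs+JNKi than in MRC5, beside 33.6% of all genes, and 11 were at least 2-fold higher, beside 3.28%. Their median log2 difference was 1.11, after 0.12 in iCAFs. COL14A1, in both counts, was at 0.29, 0.11 and 5.59 FPKM in MRC5, iCAFs and iCAFs+JNKi and passed the limit through iCAFs+JNKi. COL1A1, the main fibrillar chain, was at 1065 FPKM in untreated cells, 1094 FPKM in iCAFs and 2305 FPKM under the inhibitor, and COL3A1 at 73.6 FPKM in MRC5, 46.4 FPKM without JNKi and 296 FPKM with it. COL5A2, a chain of the minor fibrillar collagen V, was at 59.2, 55.3 and 166 FPKM in MRC5, iCAFs and iCAFs+JNKi, and COL6A3, of the beaded filament collagen VI, at 327 FPKM in untreated cells, 430.2 FPKM in iCAFs and 1067 FPKM under the inhibitor. The smallest differences were those of COL27A1 and COL18A1, at 0.05 and 0.17. COL11A1, which the study names, was at 10.1 FPKM in MRC5, 5.84 FPKM without JNKi and 15.5 FPKM with it, a log2 difference of 0.57. Of 17 enzymes that modify collagen, 15 were higher and 5 at least 2-fold so, among them P4HA3, a prolyl hydroxylase, at 1.36, 2.94 and 14.8 FPKM in MRC5, iCAFs and iCAFs+JNKi and SERPINH1, the collagen chaperone HSP47, at 120.4 FPKM in untreated cells, 141 FPKM in iCAFs and 256 FPKM under the inhibitor. LOXL1, a lysyl oxidase, went the other way, at 107 FPKM in MRC5, 74.9 FPKM without JNKi and 54.3 FPKM with it. Of 18 matrix glycoproteins 16 were higher, 9 of them at least 2-fold, and of 5 small leucine-rich proteoglycans 5 were higher, 4 of them at least 2-fold. ELN, among the 9, was under 1 FPKM in MRC5 and passed the limit through iCAFs and iCAFs+JNKi. The medians of these lists in iCAFs+JNKi were 1.02 and 1.83, and 0.63 and 0.23 without a filter. FN1, fibronectin, was at 2044, 3939.9 and 5813 FPKM in MRC5, iCAFs and iCAFs+JNKi, and TNC, tenascin-C, at 76.1 FPKM in untreated cells, 176 FPKM in iCAFs and 297 FPKM under the inhibitor.

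ACTA2, alpha smooth muscle actin and the usual marker of myofibroblasts, was at 96.6 FPKM in MRC5, 52.8 FPKM without JNKi and 411 FPKM with it, lower than MRC5 in iCAFs and higher in iCAFs+JNKi, at log2 differences of -0.86 and 2.08. It shares exon bases with FAS on the other strand. TPM1, a tropomyosin, was at 174, 283 and 501 FPKM in MRC5, iCAFs and iCAFs+JNKi, LMOD1, leiomodin, at 15.6 FPKM in untreated cells, 9.11 FPKM in iCAFs and 40.3 FPKM under the inhibitor, and MYOCD, the smooth muscle coactivator of SRF, at 0.421 FPKM in MRC5, 7.31 FPKM without JNKi and 9.92 FPKM with it. SMTN, smoothelin, was lower, at 63.5, 60.5 and 31.9 FPKM in MRC5, iCAFs and iCAFs+JNKi, a log2 difference of -0.97. The other contractile genes stood within 1.5-fold of MRC5, among them TAGLN at 1341 FPKM in untreated cells, 1292 FPKM in iCAFs and 1635 FPKM under the inhibitor and CNN1 at 39.95 FPKM in MRC5, 24.3 FPKM without JNKi and 31.5 FPKM with it. Of the 14 contractile genes, 4 stood 2-fold or more above MRC5 and 0 as far below it, with a median of 0.24 after -0.24 in iCAFs. The shares over all genes were 3.28% and 3.53%. MYOCD, among the 4, was under 1 FPKM in MRC5 and passed the limit through iCAFs and iCAFs+JNKi. RGS5, a marker of pericytes among other cells, was at 10.5, 5.81 and 68.9 FPKM in MRC5, iCAFs and iCAFs+JNKi, while MYH11 and DES, which define smooth muscle, were near or at 0. Of TGF-beta targets, CTGF was at 116 FPKM in untreated cells, 298 FPKM in iCAFs and 533 FPKM under the inhibitor and TGFBI at 265 FPKM in MRC5, 905 FPKM without JNKi and 1088 FPKM with it, both retained, and the 16 genes of that list had a median of 0.58 after 0.68.

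Set against marker lists for both states of tumour fibroblasts, the inhibited cells had more markers above MRC5 than under it in each. They were 16 of 19 inflammatory and 18 of 21 myofibroblastic markers, beside 33.6% of all genes. Of 19 inflammatory markers, 12 were at least 2-fold higher and 1, LIF, at least 2-fold lower. Over all genes 3.28% were 2-fold higher and 3.53% lower. Their median log2 difference was 1.74 in iCAFs+JNKi and 2.67 in iCAFs. Of 23 inflammatory markers listed, 19 passed the limit of 1 FPKM. Some of them, such as CXCL8 and CXCL1, were at 0.153 FPKM or less in MRC5 and passed through the other libraries. The inflammatory counts are thus in part set by the limit, and nothing is read from them. Without a filter the inflammatory median in iCAFs+JNKi was 1.12. Of 21 myofibroblastic markers, 10 were at least 2-fold higher and 0 lower, at a median of 0.95 after -0.15 in iCAFs. Several collagens and contractile genes are in both the myofibroblastic list and the lists above. VIM, vimentin, expressed by all fibroblasts, was at 2892, 1655 and 1209 FPKM in MRC5, iCAFs and iCAFs+JNKi, and CLEC3B, tetranectin, at 2.27 FPKM in untreated cells, 0.5502 FPKM in iCAFs and 0.507 FPKM under the inhibitor.

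**Figure D4:**
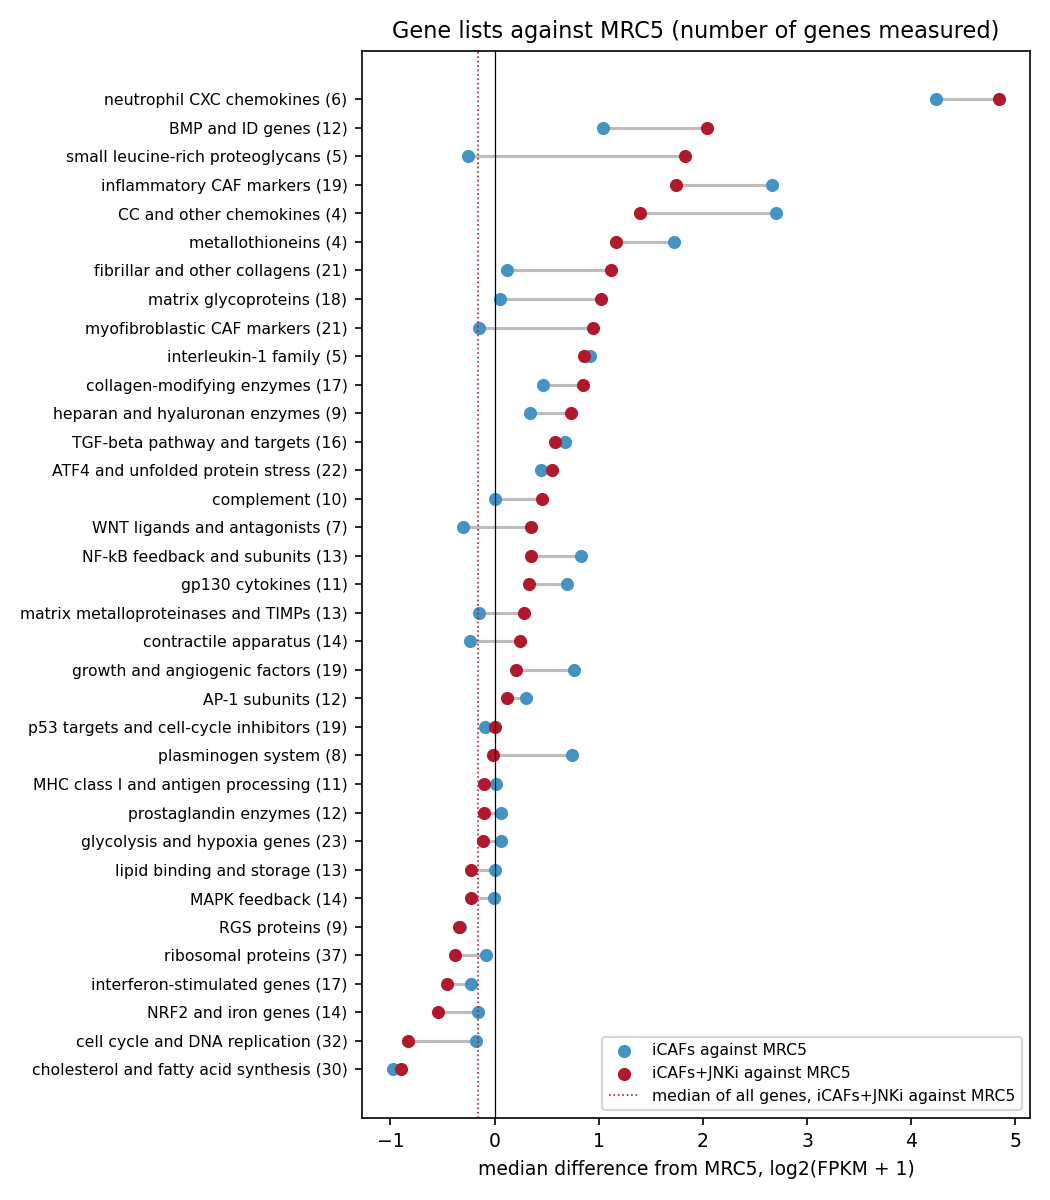
Median log2(FPKM + 1) difference from MRC5 of 35 gene lists in iCAFs and in iCAFs+JNKi, with the number of genes measured in brackets and the median of all genes under the inhibitor, -0.16, as a dotted line. The median of the collagens was 0.12 and 1.11 and that of the inflammatory markers 2.67 and 1.74, and the medians of the prostaglandin, plasminogen, MHC class I and glycolysis lists under the inhibitor turn from below to above 0 when rescaled or centred.

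On the lower side, the 186 genes near MRC5 in iCAFs included AP-1 and growth factor genes. JUN was at a log2 difference of -1.40 from MRC5, after -0.05 in iCAFs. FOSL1, the AP-1 partner FRA1, was at 103 FPKM in MRC5, 83.97 FPKM without JNKi and 40.96 FPKM with it. JUND was at 38.2, 48.03 and 24.8 FPKM in MRC5, iCAFs and iCAFs+JNKi, while JUNB was above MRC5, at 17.9 FPKM in untreated cells, 32.6 FPKM in iCAFs and 31.3 FPKM under the inhibitor. Of the 12 AP-1 genes 2 were 2-fold lower and 0 higher, beside 3.53% of all genes lower and 3.28% higher. SPRY2, which restrains receptor tyrosine kinase signalling and is induced by ERK, was at 40.5 FPKM in MRC5, 30.5 FPKM without JNKi and 8.902 FPKM with it. Of 14 MAP kinase feedback genes 3 were 2-fold lower, SPRY2, DUSP5 and SPRED3, and 0 higher, beside the same shares of all genes. FGF5 was at 60.9, 40.6 and 16.1 FPKM in MRC5, iCAFs and iCAFs+JNKi, IL32, a proinflammatory cytokine, at 11.3 FPKM in untreated cells, 13.3 FPKM in iCAFs and 1.03 FPKM under the inhibitor. PTX3, a pentraxin of innate immunity, was at 111 FPKM in MRC5, 62.5 FPKM without JNKi and 9.56 FPKM with it, and stood between 1.5-fold and 2-fold lower than MRC5 in iCAFs already. RGMB, a BMP coreceptor, was at 123, 98.96 and 24.6 FPKM in MRC5, iCAFs and iCAFs+JNKi. Some of the lowest values belonged to readthrough entries that share exons with their parts, such as BCL2L2-PABPN1 at 26.5 FPKM in untreated cells, 19.03 FPKM in iCAFs and 1.85 FPKM under the inhibitor, where the division of reads between entries is uncertain.

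Proliferation genes were lower as a group by a modest amount. Of 32 cell cycle and DNA replication genes, 32 were lower in iCAFs+JNKi than in MRC5, beside 66.4% of all genes, and 5 at least 2-fold lower, beside 3.53%. The median was -0.83, after -0.18 in iCAFs, and all 32 stayed lower after rescaling and after centring. CCNB1, the mitotic cyclin B1, was at 14.7 FPKM in MRC5, 13.8 FPKM without JNKi and 5.75 FPKM with it, CDC20, an activator of the anaphase-promoting complex, at 10.4, 9.02 and 3.92 FPKM in MRC5, iCAFs and iCAFs+JNKi, and MKI67, the Ki-67 antigen, at 4.54 FPKM in untreated cells, 3.25 FPKM in iCAFs and 1.67 FPKM under the inhibitor. Many of these levels were under 10 FPKM, where the pseudocount shrinks differences. Of 37 ribosomal protein genes, 36 were lower with a median of -0.38, and RPL13A, whose introns and exons hold small nucleolar RNAs, was the exception at 194 FPKM in MRC5, 178 FPKM without JNKi and 648 FPKM with it. Fewer dividing cells and less of these transcripts per cell cannot be told apart in bulk RNA.

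The classes could be looked up in a second table, from MRC5 infected with adenovirus carrying an empty vector (control), FLAG-tagged JUN WT or JUN AA, a form whose JNK phosphorylation sites are alanine. This table has 1 library a condition, shares no library with the one above and was normalised on its own, and it measured 10311 genes at a mean of 1 FPKM or more. JUN itself was at 25.5 FPKM with the empty vector, 4543 FPKM with JUN WT and 291 FPKM with JUN AA, so the 2 forms also differ in amount. Among all genes, 6.92% were at least 2-fold higher in JUN WT than in control and 3.39% at least 2-fold lower, and in JUN AA 5.29% and 3.77%.

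Of the genes that returned under the inhibitor from above MRC5, 34 were measured there, and 13 (38.2%) were at least 2-fold higher in JUN WT and 0 lower. In JUN AA 3 (8.82%) were higher and 4 (11.8%) lower. CDCP1, a transmembrane protein that recruits SRC kinases, was at a log2 difference from control of 2.17 in JUN WT and 0.30 in JUN AA. HAS2 was at 1.77 and 0.40, G0S2 at 1.52 and 0.11, VEGFC at 1.33 and -0.01, and HBEGF, past MRC5, at 1.40 and -0.09. Of the 3 measured genes that overshot from above, 1, LIF, was 2-fold higher in JUN WT, at 1.55 and 1.29, so with both forms. IER3 and NRG1 did not follow, at -0.15 and -0.01 in JUN WT. Of the retained genes higher than MRC5, 92 were measured, and 9 (9.78%) were higher and 25 (27.2%) lower in JUN WT, with 3 (3.26%) and 23 (25%) in JUN AA. In JUN WT the returned genes thus exceeded the background share on the higher side, and the retained genes most of all on the lower side. Among the 9 retained genes higher in JUN WT were MMP3, at 3.27 and -0.13 in JUN AA, CXCL8, at 2.45 and 0.14, and CXCL3, at 1.77 and 0.27. AREG, at -2.04 and -0.98, was among the 25 lower. CXCL8 and CXCL3 were at 0 and 0.159 FPKM in control and passed the limit through JUN WT. The retained CXCL1, CXCL6, SAA1, SAA2 and C3 were not measured there, so the shares do not cover them. With 1 library a condition these shares are descriptions of the libraries, with no test.

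Genes near MRC5 in iCAFs and higher under the inhibitor included more genes lower than higher with both forms of JUN: of 128 measured, 0 were 2-fold higher and 33 (25.8%) lower in JUN WT, and 9 (7.03%) higher and 35 (27.3%) lower in JUN AA. CEMIP and PODN, the genes that overshot from below, were at -3.37 and -1.61 in JUN WT and -3.64 and -2.44 in JUN AA. COL4A1 was at -1.28 and -1.66, FMOD at -2.16 and -2.22, and ACTA2 at -1.38 and -1.64. These 5 genes were thus lower than control with JUN WT and with JUN AA. Genes near MRC5 in iCAFs and lower under the inhibitor went the other way, with 46 of 155 (29.7%) higher and 1 lower in JUN WT, and 24 (15.5%) higher and 9 (5.81%) lower in JUN AA. SPRY2 was at 1.98 and 0.59 and DUSP5, of the retained lower genes, at 1.03 and -0.13. Of the 41 measured genes that returned from below, 2 (4.88%) were higher and 8 (19.5%) lower in JUN WT, with 0 and 9 (22%) in JUN AA.

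**Figure D5:**
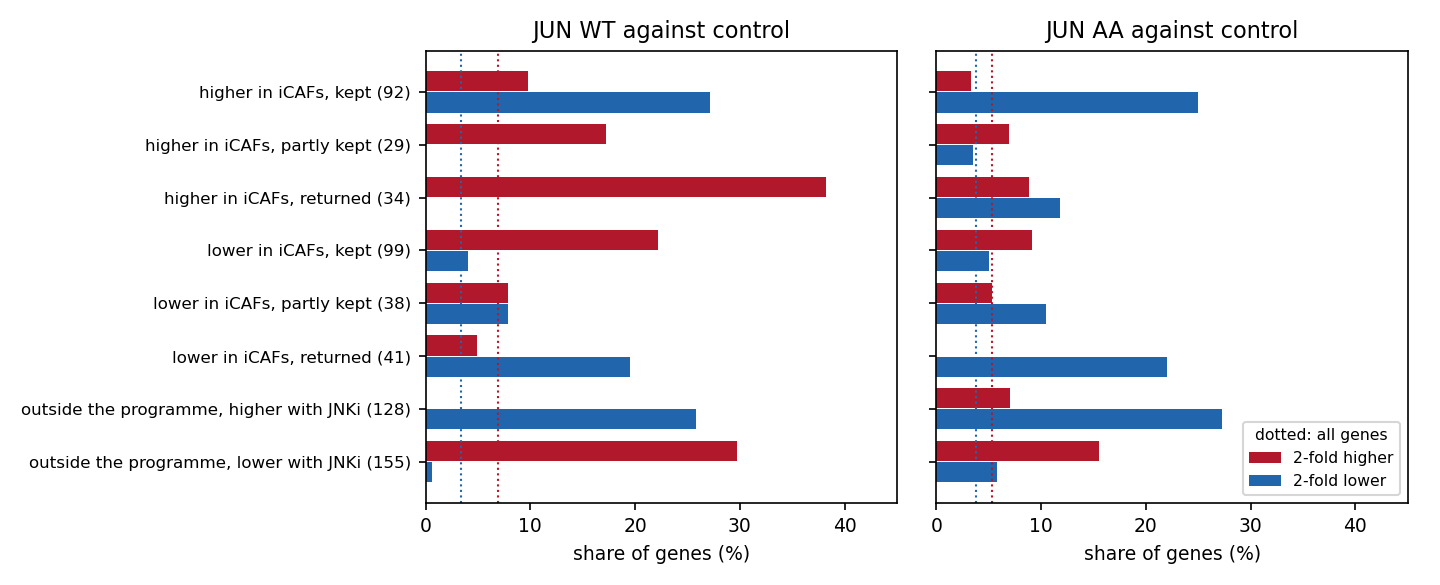
Share of the genes of each class, in percent, at least 2-fold higher or lower than control in JUN WT (left) and JUN AA (right), with the number measured in brackets and the shares of all genes as dotted lines. Of the classes plotted, the returned genes higher in iCAFs have the largest share higher in JUN WT, 38.2%, and the genes near MRC5 in iCAFs and higher with JNKi have 0 there.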

How the data were processed

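RNA of MRC5, iCAFs and iCAFs+JNKi was sequenced from 1 library each, and the authors deposited a table of FPKM per gene, made by mapping with HISAT2 2.1.0 at default parameters to hg19 and quantifying with StringTie 2.1.1, per the labels and the methods. FPKM are scaled to exon length and mapped fragments. The annotation, strand setting and read numbers are not given in the sources used here, so depth is unknown and no count model, interval or floor was used. A second FPKM table, from control, JUN WT and JUN AA, was normalised separately and compared only within itself.

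Genes averaging at least 1 FPKM over the 3 libraries of a table were compared by the difference of log2(FPKM + 1), with numpy 2.4.6 and pandas 2.3.3 under Python 3.11.15. Of 25370 rows, rows with a shared symbol were reduced to the one with the highest mean, and 28 symbols turned into dates were kept as they are. With 1 library per condition no test was made. A difference was called at 2-fold, and 1.5-fold bounded the return to MRC5. The calculation was tested on simulated data. The comparison, the 35 gene lists and the markers were chosen with earlier results of these data known.

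Named genes are the 10 largest differences in each direction, the 8 genes of each class with the largest difference in iCAFs, the 8 largest outside the programme in each direction, all at a mean of at least 5 FPKM, the 3 largest of each list, and those the study names for fibroblasts. Other genes named, among them further members of the lists and of the gene clusters, were chosen after their values were seen. Positions and shared exons were read from GRCh37 with GENCODE, found for 167 of 173 named genes, of which 38 share exon bases with another gene, and promoters from RefSeq on GRCh38.p14. Alternatives were a pseudocount of 0.1, rescaling to a sum of 1000000, centring on the median gene, no filter, a filter of 5 FPKM, summed rows of a symbol, a programme at 1.5-fold and the mean over a list. A few members of the lists are not reported here by name. Figures were drawn with matplotlib 3.10.9.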

Additional observations from a re-analysis of the deposited data

How the results depend on the processing

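With 1 library a condition there is no replicate to leave out, the read numbers are unknown, and levels near 0 are the least certain. No paired analysis was possible because each condition has 1 library and no conditions share 2 replicate numbers. Values were taken to have moved at over 0.25 on the log2 scale, 1.5 times for counts or 10 percentage points, and no value is an error. No named gene at least 2-fold from MRC5 turned its direction. The 5 that did, G0S2, IRAK2, VEGFC, PRSS23 and ANO4, lay near MRC5 and turned when centred or, for the last 3, also when rescaled. Of 173 named genes, 121 held within the limit at a pseudocount of 0.1 and 125 when rescaled. Rescaling kept a pseudocount of 1 on larger values, so what it moved is not an effect of the library sums alone. Centring adds the same 0.16 to every gene, under that limit, so no single gene or list median could count as moved by it. It could still turn genes near MRC5, as above, and move counts, as given below. Summed rows and no filter moved no count.

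Of genes 2-fold from MRC5 in iCAFs+JNKi, the higher were 581 when rescaled, and the lower were 706 at a pseudocount of 0.1, 267 when centred and 263 at 5 FPKM. Of these, genes near MRC5 in iCAFs were, on the higher side, 251 rescaled and 103 at 5 FPKM, and on the lower side 327 at a pseudocount of 0.1, 111 centred and 122 at 5 FPKM. For the programme higher in iCAFs, a pseudocount of 0.1 gave 208 retained, 5 past and 11 overshot, rescaling 203 retained (68.8%) and 5 past, centring 3 past, and a filter of 5 FPKM 26 returned. With the programme at 1.5-fold it gave 209 retained (38.1%), 126 partly retained, 189 returned, 12 past and 13 overshot. For the programme lower in iCAFs, a pseudocount of 0.1 gave 175 retained, 75 partly retained, 89 returned and 8 overshot, rescaling 72 returned and 5 overshot, centring 5 overshot, and 5 FPKM 69 retained and 22 partly retained. At 1.5-fold there were 217 retained (29.2%), 230 partly retained, 271 returned, 14 past and 10 overshot. The share retained thus falls with a wider programme, which takes in smaller differences.

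Medians of lists moved as follows, in log2 against MRC5. At a pseudocount of 0.1 they were 7.37 for neutrophil CXC chemokines, 2.80 for CC and other chemokines, 3.11 for the interleukin-1 family, -0.72 for interferon-stimulated genes and 2.86 for inflammatory markers. Rescaled, they were 6.13, 2.03 and 1.64 for the first 3 of these, 1.27 for matrix glycoproteins and 2.09 for inflammatory markers. Without a filter they were 4.57, 0.0060 and 0.0027 for the same 3, 0.63 for matrix glycoproteins, 0.23 for small leucine-rich proteoglycans, 1.54 for BMP and ID genes, 0.018 for WNT genes, -0.15 for interferon-stimulated genes, 0 for metallothioneins and 1.12 for inflammatory markers. At 5 FPKM they were 5.12 for neutrophil CXC chemokines, 2.78 for the interleukin-1 family, 0.16 for prostaglandin enzymes, against -0.10, -0.15 for interferon-stimulated genes and 2.16 for inflammatory markers. As means they were 1.89 for CC and other chemokines, 1.85 for the interleukin-1 family, 0.57 for growth factors, 0.66 for NF-kB genes, 0.35 for prostaglandin enzymes, 0.55 for contractile genes, 1.15 for heparan and hyaluronan genes, -0.048 for RGS genes, 1.14 for complement and 2.25 for inflammatory markers. In JUN AA, rescaling moved the share lower to 42.4% for retained genes higher in iCAFs, 34.1% for genes returned from below and 46.1% for genes near MRC5 in iCAFs and higher with JNKi.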

Other observations

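Stress, metal and metabolic genes of iCAFs+JNKi differed from MRC5 in smaller groups. Over all genes 3.28% were 2-fold higher and 3.53% lower, and 33.6% were higher at all. Of 22 genes of ATF4 and the unfolded protein response, 17 were higher than in MRC5 and 4 at least 2-fold so, with a median of 0.56 after 0.44 in iCAFs. CHAC1, which degrades glutathione, was at 39.3, 54.3 and 168 FPKM in MRC5, iCAFs and iCAFs+JNKi, and PDIA4, an ER protein disulphide isomerase, at 48.03 FPKM in untreated cells, 84.2 FPKM in iCAFs and 118 FPKM under the inhibitor, whereas DDIT3, the stress factor CHOP, was at 20.9 FPKM in MRC5, 12.1 FPKM without JNKi and 10.6 FPKM with it. Of 4 metallothioneins 3 were at least 2-fold higher, while MT2A returned at 1579, 3827 and 1796 FPKM in MRC5, iCAFs and iCAFs+JNKi. Of 14 NRF2 and iron genes 12 were lower (9 when rescaled or centred), beside 66.4% of all genes, and 2 at least 2-fold so, beside 3.53%, and the ferritin light chain FTL was at 4175 FPKM in untreated cells, 2191 FPKM in iCAFs and 1756 FPKM under the inhibitor. Glycolysis and hypoxia genes had 1 of 23 higher and 1 lower by 2-fold, with ADM, adrenomedullin, at 35.9 FPKM in MRC5, 43.99 FPKM without JNKi and 93.4 FPKM with it and HK1, a hexokinase, at 81.8, 71.2 and 39.6 FPKM in MRC5, iCAFs and iCAFs+JNKi. In the lipid binding and storage list 1 of 13 was 2-fold higher and 4 were lower.

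Signalling and immune lists were mixed. The counts here stand beside 3.28% of all genes 2-fold higher and 3.53% 2-fold lower. WNT5A was at 30.4 FPKM in untreated cells, 96.99 FPKM in iCAFs and 134 FPKM under the inhibitor, and SFRP1, a WNT antagonist, at 1009.95 FPKM in MRC5, 611 FPKM without JNKi and 435 FPKM with it, in a list of 7 with 2 higher and 2 lower by 2-fold. Of 9 RGS genes 2 were 2-fold higher and 3 lower. Of 10 complement genes 4 were 2-fold higher and 0 lower, and C1R was at 20.97, 24.7 and 73.2 FPKM in MRC5, iCAFs and iCAFs+JNKi. Interferon-stimulated genes had 14 of 17 lower (13 when rescaled, 12 when centred), a share not far from the 66.4% of all genes, and 1 of them, MX1, by 2-fold, at a median of -0.46 after -0.22. None of 11 MHC class I genes and 0 of 13 metalloproteinase and inhibitor genes were 2-fold lower, and MMP3 was the 1 that was 2-fold higher. Prostaglandin genes had 3 of 12 higher, among them PTGS1, the constitutive cyclooxygenase, at 40.6 FPKM in untreated cells, 64.4 FPKM in iCAFs and 167 FPKM under the inhibitor. Of 19 p53 targets and cell-cycle inhibitors 2 were 2-fold lower, GADD45A at 55.1 FPKM in MRC5, 39.8 FPKM without JNKi and 20.4 FPKM with it and CDKN2A at 35.97, 28.4 and 16.2 FPKM in MRC5, iCAFs and iCAFs+JNKi. The growth and angiogenic factors had 5 of 19 higher and 1 lower, and ANGPT1 was at 10.6 FPKM in untreated cells, 12.6 FPKM in iCAFs and 37.1 FPKM under the inhibitor.

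A gene that the study names for fibroblasts, HAPLN1, lay below the limit of 1 FPKM, being listed at 0 in MRC5, with 0.0677 FPKM in iCAFs and 0.406 FPKM under the inhibitor. FGF1 was at 4.04 FPKM in MRC5, 1.305 FPKM without JNKi and 2.36 FPKM with it and counted as returned from below, at the edge of that class.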
